A study of Mus musculus with 48 samples.

Results

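The mouse embryonic stem cell (ESC) lines OCT4-tetOff and FOXD3-iKO, were compared in the state in which neither factor had been removed, using the 4 vehicle libraries of 24 h out of the 48 libraries of the series. OCT4-tetOff is a line in which doxycycline shuts off OCT4 (Pou5f1), and its vehicle libraries come from cells given water for 24 h. FOXD3-iKO is an inducible knockout of Foxd3, and its vehicle libraries come from cells given ethanol, the solvent of 4-hydroxytamoxifen (4HT), for 24 h. Each group holds 2 libraries. Both lines were cycling, grew in L2i medium and were labelled for 30 min with 4-thiouridine (4SU), a uridine analogue taken up by RNA as it is made. The labels name no strain, clone or construct for them. Line, vehicle, experiment and library series form a single factor here, so their parts in any difference cannot be told apart. The labels do not say that the 2 libraries of a group came from separate cultures, so p-values measure the spread between these libraries, which may be technical.

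Pluripotent cells are held in that state by transcription factors such as OCT4, SOX2 and NANOG, with a naive layer (KLF, TFCP2L1, ESRRB) that is lost as cells move toward the formative epiblast. Lines derived from separate embryos are known to differ in sex chromosomes, in imprinted loci and in how strongly they respond to WNT, nodal and BMP signals, and whole chromosomes can be gained in culture. Newly made RNA reports transcription over the labelling time rather than the pool of stored messages. In bulk samples, fewer cells of a type and less RNA per cell cannot be told apart.

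The 4 libraries held between 21267401 and 30406124 counts. Expression is given as CPM, the counts of a gene scaled to the size of its library after TMM normalisation, and a difference as the log2 fold change of OCT4-tetOff over FOXD3-iKO with its standard error (SE). A floor of 3 counts in a library equals 0.0987 to 0.141 CPM. The 8 ESC markers summed to 2723 and 2864 CPM of total counts in OCT4-tetOff and to 2216 and 2219 CPM in FOXD3-iKO. Sox2 is listed at 0 in all 4 libraries, and its interval lies wholly inside another gene of the same strand. Of 6539 genes placed that way 6533 had no count in the 24 cycling libraries, so Sox2 could not be read. The 16 fibroblast markers summed to 20.5 and 22.6 CPM in OCT4-tetOff against 13.3 and 14.4 CPM in FOXD3-iKO, with Postn and Lum at 0. Blood and endothelial markers summed to 13.7 and 15.1 against 22.1 and 24.0 CPM, with Hbb-bt and Hba-a1 at 0. The part of such cells in the differences below was not tested. Both inducible systems responded in contrasts of libraries not used for this comparison, though each fit also held the vehicle libraries of 24 h of its line. Pou5f1 fell by 1.5 on the log2 scale after 16 h of doxycycline in OCT4-tetOff, and Foxd3 fell by 1.63 after 32 h of 4HT in FOXD3-iKO (edgeR quasi-likelihood test, adjusted p = 7.3e-05 and 0.0029).

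The lines differed widely in newly made RNA. Of 18437 genes tested, 5990 passed an adjusted p of 0.05 (Benjamini-Hochberg) and were called (32.5%), with 2569 higher in OCT4-tetOff (13.9%) and 3421 lower (18.6%). A change of over 2-fold was seen in 2733 of them (14.8%), of which 827 were higher and 1906 lower in OCT4-tetOff. The excess of lower calls over all sizes depended on the scaling. With total counts alone the split was 3164 higher and 2912 lower, and with a trend over gene length removed it was 4343 higher and 4238 lower. The number called fell to 3303 without FOXD3-EtOH-24hpT replicate 1 and to 3863 without its replicate 2. With 2 libraries against 2, an exact permutation test of a single gene cannot go below p = 0.333, so each call rests on the spread shared by the 8 libraries of 24 h in the fit. All 5990 called genes were read without overlap between the lines at 24 h. A lack of overlap therefore does not set a named gene apart from other calls. The counts of called members given below for each gene list stand beside these shares of 13.9% higher and 18.6% lower over all genes.

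The same comparison was made a second time in 4 vehicle libraries that the first did not use, OCT4-tetOff at 16 h and FOXD3-iKO at 14 h. The times differ between the lines there, and the FOXD3-iKO libraries of 14 h and 24 h carry different library series numbers. In it 8414 of 18400 genes were called (45.7%), 3998 higher and 4416 lower in OCT4-tetOff. Scaling to total counts alone turned this split into 1522 higher and 6839 lower and moved the median of all genes to -0.25, beside Gm26917 and Gm42418 shares of 37.9% to 43% of counts in the OCT4-tetOff libraries of 16 h and 25.8% to 29.4% in the FOXD3-iKO libraries of 14 h. At 24 h those 2 predicted genes held 26% to 27.3% and 29% to 31.8%. Of the 5899 genes called at 24 h and tested again, 5759 (97.6%) had the same sign, and 4777 were called again with it. That is 79.7% of the calls at 24 h and 56.8% of those at 14 and 16 h. Another 15 genes were called in both with opposite signs. Across the 17964 genes tested in both, which are not independent replicates, Spearman's rho of the log2 fold changes was 0.81. A test of the difference between the 2 line differences called 157 of 19275 genes (0.815%). That count ran from 41 to 115 when 1 library was left out and was 959 with total-count scaling.

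**Figure D1:**
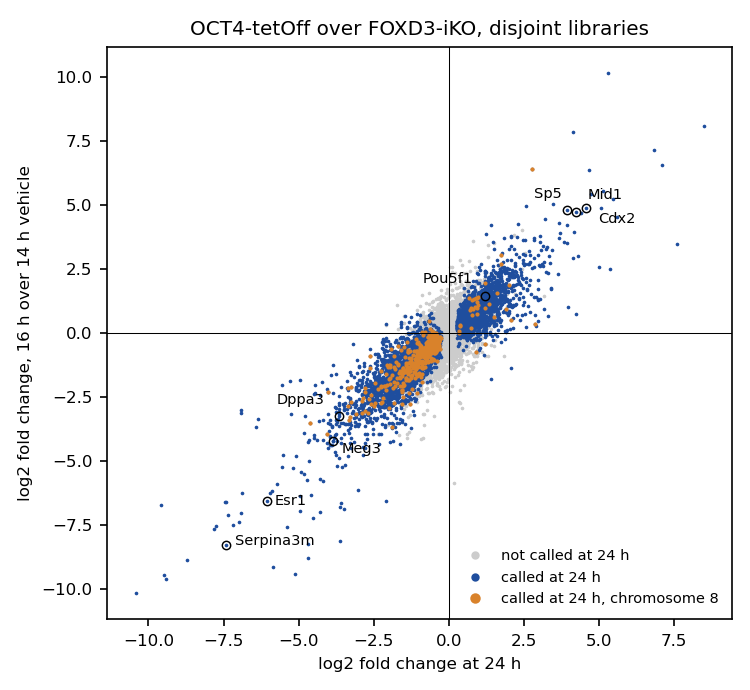
Log2 fold change of OCT4-tetOff over FOXD3-iKO for each gene at 24 h (x axis) and in the vehicle libraries of 16 and 14 h (y axis), with genes called at 24 h in blue, those of them on chromosome 8 in orange and genes not called in grey. Most called genes lie along the rising diagonal, with Serpina3m at -7.41 and -8.29 and Cdx2 at 4.56 and 4.86 among those marked, and the called chromosome 8 genes lie mostly below 0 on both axes.

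One chromosome stood apart as a whole. Chromosome 8 genes were lower in OCT4-tetOff, with a median log2 fold change of -0.50 over 950 tested genes at 24 h and of -0.51 over 964 at 14 and 16 h. On this chromosome 519 genes were called lower and 34 higher at 24 h, and 87.8% had a negative sign. The medians of the other 18 autosomes ran from -0.09 to 0.07, and that of the X chromosome was 0.03. The share of counts from chromosome 8, outside Gm26917, Gm42418 and mitochondrial genes, was 6.75% ± 0.043 (SD, n = 2) in FOXD3-iKO and 4.68% ± 0.023 (SD, n = 2) in OCT4-tetOff at 24 h. The ranges did not overlap in any cycling library of either line, treated ones included, at 6.40% to 6.83% over 16 FOXD3-iKO libraries and 4.67% to 4.80% over 8 OCT4-tetOff libraries. Several genes that appear in the lists below lie on this chromosome, among them Zfp42, Fgfr1, Aars and Slc7a5. DNA was not measured.

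**Figure D2:**
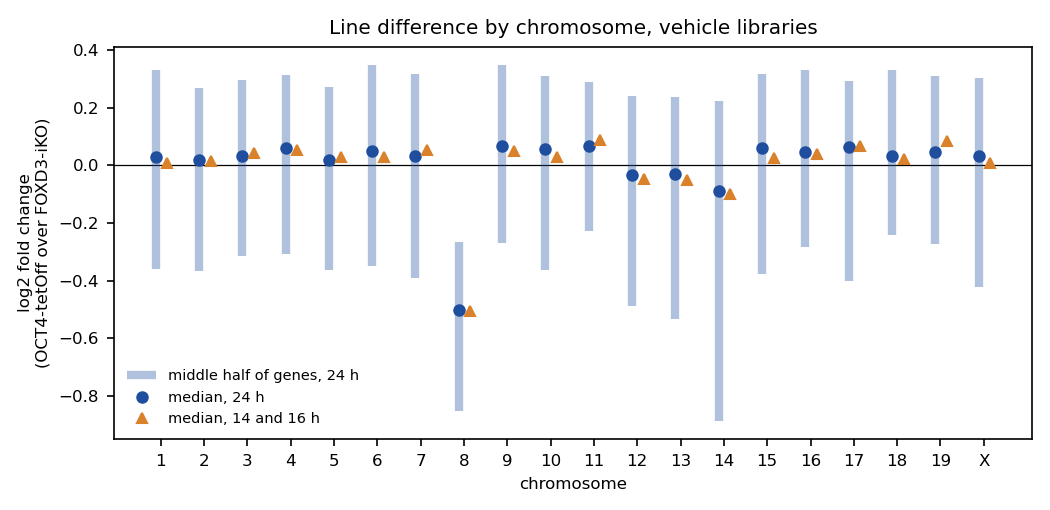
Median log2 fold change of OCT4-tetOff over FOXD3-iKO by chromosome (x axis) at 24 h (circles, with bars from the first to the third quartile of the genes) and at 14 and 16 h (triangles). Chromosome 8 sits at -0.50 in both comparisons, and the other autosomes lie between -0.09 and 0.07 at 24 h.

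Stretches of neighbouring genes on 3 other chromosomes were lower as well. A running median over 15 neighbouring genes, held beyond 0.35 in both comparisons for at least 25 genes, was used to find them, and this rule was chosen after the data were seen. It returned 14 stretches, all lower in OCT4-tetOff, with 11 on chromosome 8 and 1 each on chromosomes 14, 17 and 4. The stretch of chromosome 14 (mm10 chr14:59158503-97666291) held 172 genes with medians of -0.97 and -1.0, and 136 of them were called lower and 4 higher at 24 h. The 25 genes on its left had a median of -0.07 and the 25 on its right one of 0.55. The stretch of chromosome 17 (chr17:72836453-85928579) held 77 genes with medians of -0.96 and -0.98, of which 58 were called lower and 1 higher, between flanks at -0.06 and 0.11. These 2 stretches gave 0.902% to 1.1% and 0.486% to 0.611% of counts in FOXD3-iKO libraries and 0.490% to 0.554% and 0.259% to 0.303% in OCT4-tetOff libraries, again with no overlap. The rest of chromosome 14 overlapped between lines (2.54% to 2.84% and 2.67% to 3.04%). The stretch of chromosome 4 (chr4:144555000-147746561) had a median of -0.77 over 49 genes, 26 of them with provisional names, in a cluster of closely related zinc finger genes whose reads can be split between copies.

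Rb1, the retinoblastoma cell cycle repressor, lies inside the chromosome 14 stretch. It was read at 24.0 and 29.4 CPM in OCT4-tetOff and at 61.4 and 58.9 CPM in FOXD3-iKO, a log2 fold change of -1.17 ± 0.154 (SE, adjusted p = 0.00031). Fdft1, the first enzyme committed to sterols, lies there as well and stood at 52.8 and 57.4 against 112 and 108 CPM (-0.99 ± 0.104, adjusted p = 7.4e-05). Both levels separated the lines without overlap, as for every called gene. Outside chromosome 8 and the stretches of 14 and 17, 2530 genes were called higher and 2706 lower, against 715 of all 3421 lower calls (20.9%) inside them, where 6.5% of the tested genes lie.

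**Figure D3:**
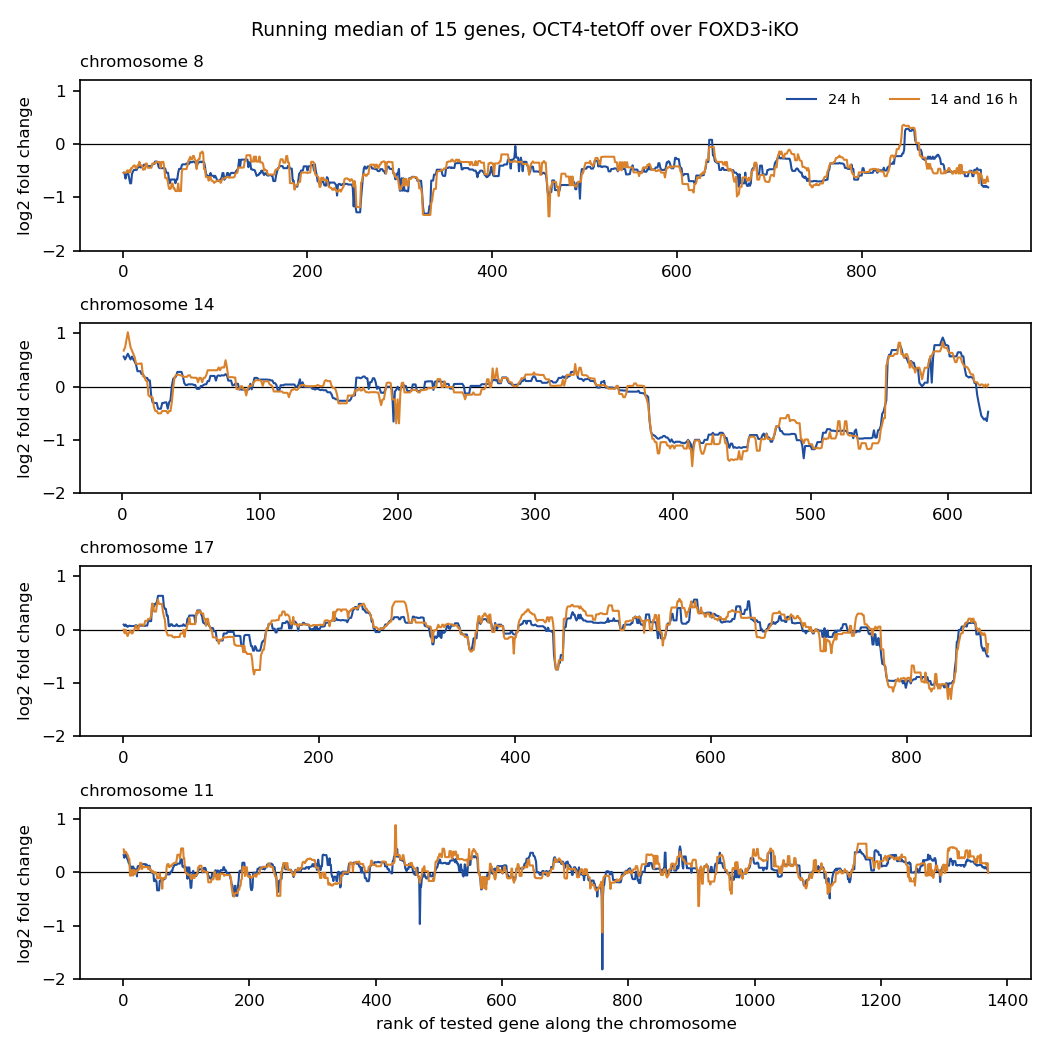
Running median of the log2 fold change over 15 neighbouring tested genes (y axis) against gene rank along chromosomes 8, 14, 17 and 11 (x axis), at 24 h (blue) and at 14 and 16 h (orange). Chromosome 8 runs near -0.5 over most of its length, chromosomes 14 and 17 each drop to about -1 in a single block, and chromosome 11, shown for contrast, moves to both sides of 0 with a median of 0.07 over its genes at 24 h.

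Some genes were close to absent in OCT4-tetOff and well read in FOXD3-iKO. Saa3, an acute-phase serum amyloid, had 0 counts in both OCT4-tetOff libraries and 3.17 and 3.68 CPM in FOXD3-iKO, which makes it at least 21.7-fold lower against a floor of 3 counts per library. Serpina3m, a serine protease inhibitor (chr12:104338486-104394257), was read at 0.363 and 0.239 CPM in OCT4-tetOff and at 54.1 and 51.4 CPM in FOXD3-iKO (-7.41 ± 0.199, adjusted p = 3e-08). Part of its interval, 23.7%, overlaps another gene on the same strand. Esr1, the estrogen receptor alpha (chr10:4611593-5005614), stood at 1.09 and 0.908 against 62.5 and 72.4 CPM (-6.06 ± 0.155, adjusted p = 3e-08). The levels of these genes did not overlap between lines, as for every called gene.

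Neuronal receptor and guidance genes were among the 20 largest lower calls. Grm7, a metabotropic glutamate receptor, was at 1.29 and 1.05 against 45.4 and 41.2 CPM (-5.19 ± 0.199). Sema5a, a semaphorin, was at 6.58 and 6.83 against 184 and 168 CPM (-4.72 ± 0.244). The GABA receptor subunit genes Gabra5 and Gabrg3 had log2 fold changes of -5.13 and -4.33. Dcdc2a, Tpm3-rs7, Pramel7, Esrp1, Nlrp4f, Pramef17 and Ikzf1 also belong to this set, between -3.89 and -5.72. Nlrp4f, Pramel7 and Pramef17 come from families of near-identical copies, so their counts are uncertain.

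Higher in OCT4-tetOff were homeobox and WNT-linked transcription factors. Cdx2, the caudal factor of trophectoderm and hindgut (chr5:147300805-147307270), was read at 4.72 and 3.92 CPM in OCT4-tetOff and at 0.204 and 0.143 CPM in FOXD3-iKO (4.56 ± 0.420, adjusted p = 3.4e-05). Cdx1, its relative, was at 21.7 and 25.6 against 2.14 and 2.82 CPM (3.27 ± 0.186). En2, an engrailed homeobox factor, was at 54.4 and 48.8 against 3.95 and 5.74 CPM (3.44 ± 0.166). In each of the 3 the lowest OCT4-tetOff library was above the highest FOXD3-iKO library, as for every higher call.

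Abca1, the cholesterol exporter, combined a high level with a large difference, at 238 and 237 CPM in OCT4-tetOff and 27.1 and 27.2 CPM in FOXD3-iKO (3.13 ± 0.122, adjusted p = 1.9e-07). Sfi1 (4.18), Slc9b2 (3.94), Tgfbi (3.93), Serpinb6b (3.85), Sp100 (3.69), Sh3tc2 (3.24), Kcnc1 (3.23), Amdhd1 (3.16), Tspan18 (3.12), Bdh2 (3.04), Ccnd2 (3.03), Dner (3.02) and Acvrl1 (2.98) were also among the 20 largest higher calls. Ccnd2 encodes a D-type cyclin, Tgfbi a matrix protein, Kcnc1 a potassium channel and Acvrl1 a receptor of the BMP family. Sfi1 has further copies in the mouse genome, so its value is uncertain. Kcnc1, at 0.928 and 0.621 CPM in OCT4-tetOff, lay under the floor of 3 counts in FOXD3-iKO (0.068 and 0.096 CPM). Serpinb6b (0.068 CPM) and Amdhd1 (0.096 CPM) lay under it in a single FOXD3-iKO library each, so the folds of these genes are uncertain. All 40 named genes, 20 in each direction, were called again at 14 and 16 h, and none of the 40 was called in the test of the difference between the comparisons.

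Pou5f1 and Foxd3 were each higher in OCT4-tetOff, where OCT4 is under doxycycline control. Pou5f1 was read at 201 and 180 CPM in OCT4-tetOff and at 77.9 and 85.9 CPM in FOXD3-iKO, 2.33-fold higher (1.22 ± 0.135, adjusted p = 0.00011). At 16 h and 14 h it stood at 217 and 223 against 83.3 and 77.4 CPM. The labels do not describe the transgene, so reads from it and from the gene itself cannot be told apart. Foxd3, the forkhead factor deleted on induction in the other line, was at 21.7 and 20.6 against 8.48 and 10.1 CPM (1.2 ± 0.156, adjusted p = 0.0003), and at 28.8 and 35.9 against 7.96 and 7.79 CPM in the second comparison. Neither gene's ranges overlapped between lines in either comparison.

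Of the 14 tested core pluripotency genes, 2 were called higher and 3 lower, with a median of 0.04 beside 0.01 over all genes. Nanog, at 527 and 469 against 387 and 406 CPM, was not called at 24 h (0.33 ± 0.159, adjusted p = 0.15). Utf1, a chromatin-bound ESC marker, was at 5.21 and 5.45 against 13.5 and 14.4 CPM (-1.39 ± 0.167, adjusted p = 0.00018). Lin28a, an RNA-binding regulator of let-7 miRNAs, was at 5.65 and 4.59 against 11.6 and 9.85 CPM (-1.07 ± 0.153). Zfp42 (Rex1), a classical naive marker on chromosome 8, was at 550 and 526 against 852 and 837 CPM (-0.65 ± 0.125, adjusted p = 0.003), close to the median of its chromosome.

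Naive pluripotency genes were mostly higher in OCT4-tetOff. Of 16 tested members 9 were called higher and 3 lower, with medians of 0.49 at 24 h and 0.51 in the second comparison. Klf5, a naive KLF factor, was at 388 and 395 against 165 and 182 CPM (1.17 ± 0.126, adjusted p = 8.8e-05). Tfcp2l1, which sustains self-renewal downstream of LIF, was at 557 and 612 against 329 and 330 CPM (0.83 ± 0.124), and Gbx2 was at 6.46 and 6.64 against 2.45 and 2.87 CPM (1.31 ± 0.20). Esrrb was higher by 0.54 ± 0.126, a call that was lost without 2 of the 4 libraries (adjusted p up to 0.10). Klf4 was called at 0.53 ± 0.182, and the call was lost without each of the 4 libraries (adjusted p up to 0.30). Klf2, on chromosome 8, was not called (-0.41 ± 0.159).

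Dppa3 (Stella), an oocyte and naive-state protein, went the other way within the naive list. It was read at 0.202 and 0.239 CPM in OCT4-tetOff and at 2.72 and 2.87 CPM in FOXD3-iKO (-3.64 ± 0.315, adjusted p = 2.4e-05). The second comparison gave 0.239 and 0.596 against 4.42 and 3.52 CPM.

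**Figure D4:**
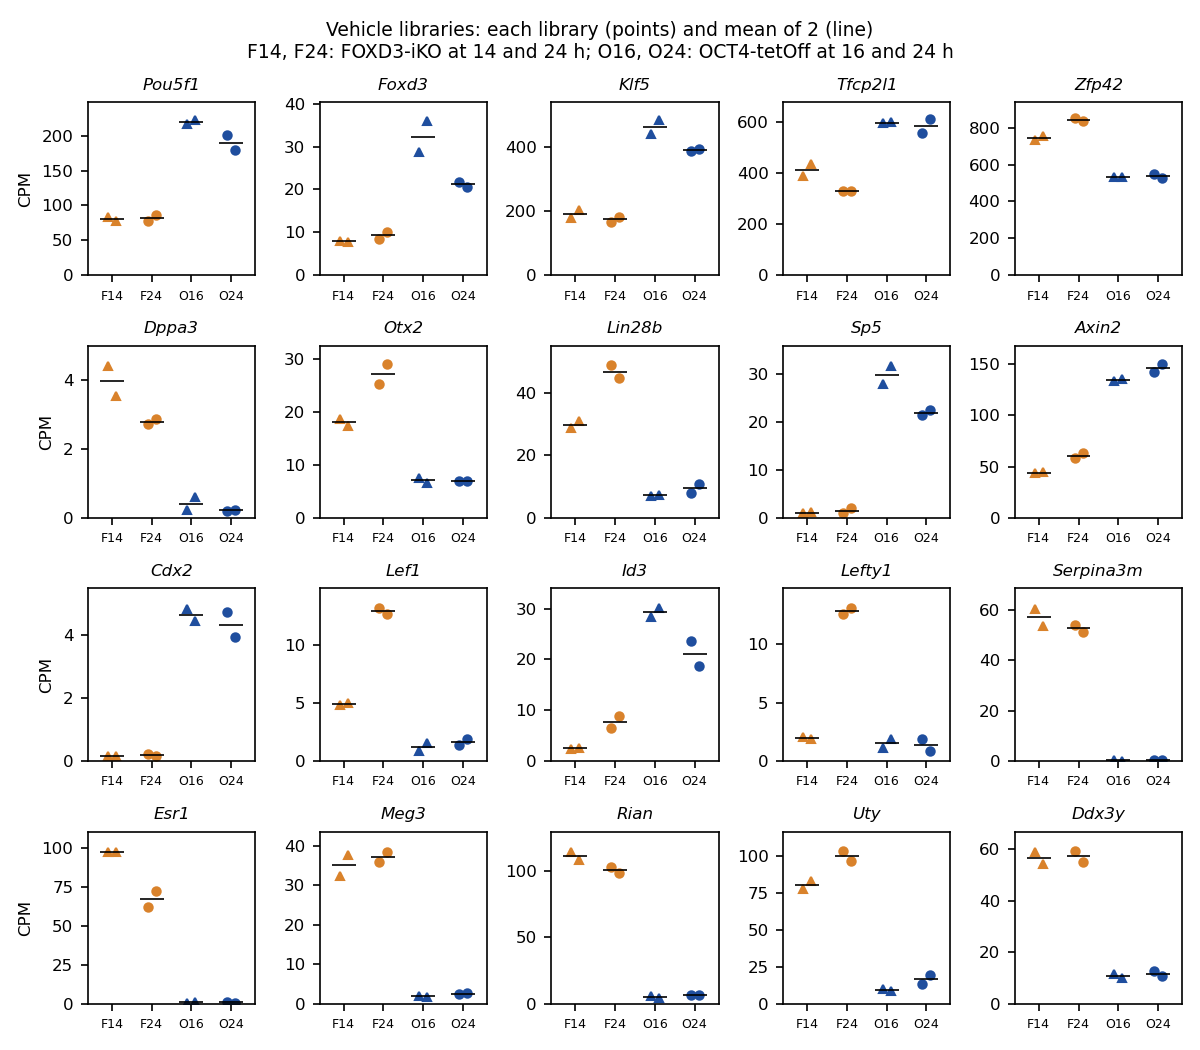
CPM of 20 genes (y axes, each from 0) in the vehicle libraries of FOXD3-iKO at 14 and 24 h (orange) and OCT4-tetOff at 16 and 24 h (blue), with each library as a triangle (14 or 16 h) or circle (24 h) and the mean of 2 as a line. Pou5f1, Klf5, Sp5 and Axin2 are high in OCT4-tetOff at each time, Meg3, Rian, Uty and Serpina3m are high in FOXD3-iKO, and Lefty1 and Lef1 differ between the 2 times within FOXD3-iKO.

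Formative and primed epiblast genes were mostly lower in OCT4-tetOff, with 11 of 16 tested members called lower, 3 higher and a median of -0.89. In the second comparison 6 were called lower and 5 higher, with a median of -0.32. Otx2, the homeobox factor of the formative state, was at 7.02 and 6.88 against 25.3 and 29 CPM (-1.96 ± 0.137, adjusted p = 6.3e-06). Lin28b was at 7.95 and 10.9 against 49.0 and 44.6 CPM (-2.32 ± 0.203), Sox11 at 0.404 and 0.334 against 2.45 and 3.01 CPM (-2.85 ± 0.322), and Tead2, a partner of YAP, at 28.1 and 28.9 against 53.6 and 59.0 CPM (-0.98 ± 0.105). The OCT4-tetOff libraries were lower than the FOXD3-iKO libraries for each of these, as for every lower call. Pou3f1 was lower by 1.60 on the log2 scale (adjusted p = 0.0033), and Dnmt3b, the de novo methyltransferase, was not called (0.28 ± 0.115).

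WNT-response genes moved in both directions. These genes are read out by TCF and LEF factors once beta-catenin is stabilised. Of 17 tested members 7 were called higher and 5 lower. Sp5, a direct WNT target, was at 21.4 and 22.4 CPM in OCT4-tetOff and 0.987 and 1.96 CPM in FOXD3-iKO (3.95 ± 0.224, adjusted p = 2e-06). Axin2, the negative-feedback target, was at 143 and 150 against 58.9 and 62.9 CPM (1.27 ± 0.113, adjusted p = 2.8e-05). Both were read without overlap between lines, as was every called gene. Lef1, itself a TCF-family factor, was lower, at 1.33 and 1.86 against 13.2 and 12.7 CPM (-3.03 ± 0.210, adjusted p = 6.1e-06). Tcf7l1, the main repressive TCF of ESCs, was not called, at 277 and 463 against 286 and 295 CPM. The list median of 0.28 changed sign without OCT4-H2O-24hpD replicate 2.

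The promoters of Sp5 and Cdx2, the higher genes of largest fold among known signalling and lineage factors, are shown because each holds a motif of interest, given in capitals. They are RefSeq sequences of GRCm38.p6 from 250 bases before to 50 after the start, on the gene's strand, at chr2:70474673-70474972 (+) for Sp5 and chr5:147307200-147307499 (-) for Cdx2. The capitals mark CTTTGAT, a TCF/LEF motif, in Sp5 and ATGCAAAT, the octamer that POU factors such as OCT4 bind, in Cdx2.
Sp5: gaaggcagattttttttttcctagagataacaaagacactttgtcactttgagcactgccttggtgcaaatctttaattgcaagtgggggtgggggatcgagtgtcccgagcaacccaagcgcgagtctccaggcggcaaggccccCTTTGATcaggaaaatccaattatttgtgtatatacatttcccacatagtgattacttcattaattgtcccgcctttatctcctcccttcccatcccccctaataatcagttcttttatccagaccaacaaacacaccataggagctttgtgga
Cdx2: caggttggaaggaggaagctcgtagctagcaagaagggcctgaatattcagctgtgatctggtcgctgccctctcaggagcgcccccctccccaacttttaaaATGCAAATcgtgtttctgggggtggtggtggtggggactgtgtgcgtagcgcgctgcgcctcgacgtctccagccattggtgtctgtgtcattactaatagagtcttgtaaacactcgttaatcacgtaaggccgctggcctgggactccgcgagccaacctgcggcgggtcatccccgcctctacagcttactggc
Over the 16350 promoters of 12829 tested genes, searched on both strands, CTTTGAT occurred in 2.73% of all, in 2.76% of those of genes called over 2-fold higher and in 3.27% of those over 2-fold lower. ATGCAAAT occurred in 1.37%, 1.38% and 2.03%. Of the 12 WNT-response genes with a promoter in the table, 1 held CTTTGAT, which was Sp5. A match is a description of the letters and does not show a bound site.

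Nodal and BMP response genes differed in both directions. Nodal itself did not differ by the test, at 107 and 102 against 96.7 and 108 CPM (0.03 ± 0.126, adjusted p = 0.88). Its feedback inhibitors were lower in OCT4-tetOff at 24 h, with Lefty1 at 1.90 and 0.860 against 12.6 and 13.1 CPM (-3.18 ± 0.316) and Lefty2 at 6.82 and 5.54 against 27.4 and 25.4 CPM (-2.09 ± 0.142). Lefty1 was not called at 14 and 16 h (-0.42, adjusted p = 0.25), where FOXD3-iKO stood at 2.06 and 1.91 CPM. Inhbb, an activin subunit, was higher, at 20.1 and 17.7 against 5.58 and 5.11 CPM (1.82 ± 0.190). In all, 6 of 16 tested members were called higher and 4 lower. The list median of 0.03 changed sign without OCT4-H2O-24hpD replicate 2. The BMP targets Id3 and Id4, named after their values were seen, were higher by 1.47 ± 0.186 and 1.77 ± 0.187 at 24 h and by 3.56 and 3.11 in the second comparison.

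Of the 17 FGF and ERK feedback genes, 5 were called higher and 2 lower. Etv1 was at 103 and 123 against 39.2 and 37.2 CPM (1.56 ± 0.162), and Dusp6, an ERK phosphatase, was at 26.2 and 19.7 against 7.66 and 7.12 CPM (1.63 ± 0.193). The lower members, Fgfr1 (-0.92 ± 0.114) and Dusp4 (-1.39 ± 0.210), lie on chromosome 8. Of the 13 LIF and STAT3 response genes, 4 were called higher and 1 lower, beside 13.9% and 18.6% of all genes. Their median was 0.29. In the second comparison 4 were called higher and 5 lower, with a median of -0.14. Only 2 of the calls at 24 h were made again with the same sign. Socs3, the feedback inhibitor of LIF signalling, was at 7.95 and 7.36 against 3.10 and 3.82 CPM at 24 h (1.16 ± 0.253), a call lost without 1 library (adjusted p = 0.065). At 14 and 16 h its order was the opposite, at 21.2 and 33.1 in OCT4-tetOff and 50.7 and 48.6 CPM in FOXD3-iKO (-0.88, adjusted p = 0.0032).

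Lineage markers did not move as blocks. The primitive endoderm factors Gata4 and Gata6 were lower in OCT4-tetOff, with Gata4 at 1.21 and 1.24 against 8.34 and 7.36 CPM (-2.68 ± 0.241) and Gata6 at 1.33 and 1.15 against 4.53 and 4.73 CPM (-1.89 ± 0.176). Gata4 lies inside the chromosome 14 stretch. Sox17 had 1 and 2 counts in OCT4-tetOff and 26 and 18 in FOXD3-iKO. The basement membrane laminins of the same list were higher, with Lamb1 at 31.2 and 32.2 against 15.8 and 15.9 CPM (1.0 ± 0.092) and Lama1 at 150 and 183 against 73.9 and 77.3 CPM (1.14 ± 0.135). Of 15 tested primitive endoderm members 4 were called higher and 6 lower, and 3 of the 6 lie on chromosome 8 or in the stretches of 14 and 17.

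Among 15 trophectoderm genes 4 were called higher and 1 lower, led by Cdx2, beside 13.9% and 18.6% of all genes. The list median was 0.06, and -0.004 in the second comparison. Gata2, a higher call, was not called with scaling to the total outside Gm26917 and Gm42418 (edgeR quasi-likelihood test, adjusted p = 0.071). With 1 library left out its log2 fold change ran from 0.59 to 1.04, and that of Krt8 from 0.69 to 1.45. Tfap2a was the lower one, at 12 and 10.9 against 29 and 29.6 CPM (-1.36 ± 0.142). Eomes was not called, at 7.34 and 6.21 against 7.18 and 7.5 CPM. Of 10 mesoderm and primitive streak genes 4 were called higher and 3 lower. T (brachyury) was at 1.29 and 1.05 against 0.102 and 0.191 CPM (3.04 ± 0.438), and Kdr, the VEGF receptor, was at 1.90 and 1.43 against 4.32 and 4.59 CPM (-1.40 ± 0.190). In the 2-cell-like list 1 of 13 tested genes was called, which was higher.

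Of 18 tested HOX genes 8 were called lower, 2 higher and 8 were not called. Of the 8 lower members 5 lie in the Hoxd cluster of chromosome 2, which also gave the longest run of neighbouring genes called over 2-fold in one direction, 9 genes long (chr2:74591330-74765142), 8 of which had the same sign in the second comparison. Hoxd13 was at 0.282 and 0.239 against 3.54 and 4.78 CPM (-3.94 ± 0.352), Hoxd9 at 0.282 and 0.287 against 3.71 and 3.49 CPM (-3.64 ± 0.342), and Hoxd8 at 0.888 and 0.764 against 4.39 and 4.64 CPM (-2.43 ± 0.205). Each was called again at 14 and 16 h, at -3.40, -2.76 and -2.19. Hoxb9 was higher, at 10.4 and 9.37 against 1.77 and 3.63 CPM (1.93 ± 0.242).

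Imprinted genes are transcribed from one parental allele. In the Dlk1-Dio3 locus of chromosome 12 all 5 tested members were called lower in OCT4-tetOff, with a median of -3.83, beside 18.6% of all genes. Meg3, Rian and Mirg are long RNAs made from the maternal allele. Meg3 was at 2.46 and 2.72 against 35.8 and 38.5 CPM (-3.84 ± 0.126), Rian at 6.5 and 6.69 against 103 and 98.3 CPM (-3.93 ± 0.117), and Mirg at 4.28 and 4.16 against 60.6 and 59.7 CPM (-3.83 ± 0.112), each with an adjusted p of at most 5.6e-08. The second comparison gave -4.22, -4.38 and -4.12. Dio3, a thyroid hormone deiodinase, was at 1.25 and 1.48 against 4.70 and 4.68 CPM (-1.78 ± 0.233). Begain was lower by 1.10 on the log2 scale, a call that was lost without 2 of the 4 libraries (adjusted p up to 0.11). Dlk1 and Rtl1 were too low to test.

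The more upstream of the Meg3 promoters is printed because it stands at the head of this lower group and because methylation of its CpG sites is known to accompany silencing of the locus. The sequence is from RefSeq, GRCm38.p6, chr12:109540746-109541045 (+), with each CpG in capitals.
Meg3: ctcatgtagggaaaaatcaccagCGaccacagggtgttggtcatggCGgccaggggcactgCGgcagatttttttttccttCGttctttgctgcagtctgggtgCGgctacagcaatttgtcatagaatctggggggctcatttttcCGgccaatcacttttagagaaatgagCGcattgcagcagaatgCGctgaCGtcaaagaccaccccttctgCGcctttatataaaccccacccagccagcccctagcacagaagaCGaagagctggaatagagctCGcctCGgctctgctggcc
It holds 13 CpG sites, with an observed to expected CpG ratio of 0.602 against a median of 0.698 over all promoters used. RefSeq lists a second start of Meg3, whose promoter (chr12:109545148-109545447) holds 1 CpG and has a ratio of 0.059. DNA methylation was not measured.

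Of the 30 other tested imprinted genes 4 were called higher and 12 lower. Plagl1, a zinc finger regulator of growth, was at 15.0 and 16.4 against 163 and 146 CPM (-3.30 ± 0.124, adjusted p = 1.5e-07). Sfmbt2, a polycomb-family protein, was at 24.7 and 24.4 against 103 and 103 CPM (-2.07 ± 0.132), and Mest at 11.5 and 9.37 against 38.2 and 39 CPM (-1.88 ± 0.123). Peg10, a retrotransposon-derived gene, went the other way at 61.8 and 58.4 against 12.5 and 13.4 CPM (2.22 ± 0.156). Airn, the antisense RNA of the Igf2r locus, was lower (-1.0 ± 0.137) while Igf2r was not called (0.07 ± 0.104). Dnmt3l, the cofactor of de novo methylation, was lower, at 5.41 and 5.64 against 23.1 and 25.4 CPM (-2.13 ± 0.146), in a list of methylation genes with 1 of 14 called higher and 2 lower.

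Y-linked genes were read in each line and were lower in OCT4-tetOff, with 7 of 7 tested members called lower. Uty, a histone demethylase relative, was at 13.7 and 19.5 against 103 and 96.4 CPM (-2.60 ± 0.205), Ddx3y, an RNA helicase, at 12.6 and 10.9 against 59.4 and 55.2 CPM (-2.28 ± 0.108), and Eif2s3y, a translation initiation subunit, at 17.7 and 17.7 against 37.5 and 36.3 CPM (-1.06 ± 0.110). The factor between lines was thus unequal along the chromosome. Zfy1 had 2 and 3 counts against 77 and 44, Uba1y 3 and 3 against 47 and 38, and Kdm5d 3 and 0 against 13 and 16. Usp9y had 17 and 12 against 36 and 23 counts and lost its call without each of the 4 libraries (adjusted p up to 0.19). Kdm5d lost its call without 1 library (adjusted p = 0.056). Zfy2 had 1 count in each library and Sry none. All counts of the Y chromosome together did not follow these genes, at 0.105% ± 0.0099 (SD, n = 2) of counts in OCT4-tetOff and 0.0815% ± 0.0021 (SD, n = 2) in FOXD3-iKO.

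At the other end of the sex chromosomes Mid1 and its Y copy were higher in OCT4-tetOff. Mid1, which in laboratory mice spans the pseudoautosomal boundary, was at 129 and 136 against 7.28 and 6.83 CPM (4.23 ± 0.137), and Mid1-ps1 at 13.8 and 14.7 against 0.170 and 0.048 CPM (6.85 ± 0.276). These copies are near-identical, so the share of each is uncertain. Xist, the RNA of X inactivation, was low in both lines at 2.10 and 3.06 against 1.53 and 1.77 CPM and was not called (0.64 ± 0.242, adjusted p = 0.068). It was called under 5 of 13 alternatives, with adjusted p from 0.030 to 0.33. Its antisense partner Tsix was at 44.3 and 43.6 against 53.1 and 59.6 CPM (-0.36 ± 0.099), a call lost without 3 of the 4 libraries (adjusted p up to 0.18). Tsix overlaps other genes of its strand over 93.9% of its interval, so only part of it was read. Of genes wholly covered by a gene of the other strand 32.1% had no count, against 36.7% of genes with no overlap, so opposite strands were counted apart.

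Groups of metabolism, stress, antigen presentation and cell cycle were read beside the 13.9% of all genes called higher and the 18.6% called lower. Of 21 glycolysis genes 8 were called higher and 1 lower, with a median of 0.30. Slc2a1, the GLUT1 glucose transporter, was at 179 and 188 against 97.2 and 102 CPM (0.88 ± 0.115, adjusted p = 0.00031), and Pfkfb3 at 51.5 and 52.2 against 36.0 and 35.9 CPM (0.53 ± 0.104). Hk2 was higher by 0.58 ± 0.113, a call lost without 1 library (adjusted p up to 0.057), and Slc2a3 by 0.60 ± 0.142, lost without 2 (up to 0.097). Of 26 integrated stress response genes 12 were called lower and none higher at 24 h, with a median of -0.29. In the second comparison 9 were called lower and 4 higher, with a median of -0.14. Slc7a5, an amino acid transporter (-0.75 ± 0.101), and Aars, the alanyl-tRNA synthetase (-0.79 ± 0.136), lie on chromosome 8. Phgdh, of serine synthesis, does not, and was at 23.4 and 25.5 against 36.9 and 36.8 CPM (-0.59 ± 0.097). The transcription factors of this response, Atf4 (0.11 ± 0.163) and Ddit3 (-0.20 ± 0.152), were not called.

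Of 13 genes of MHC class I and antigen processing 3 were called lower and none higher. These are too few to read as a difference from the 18.6% lower and 13.9% higher over all genes. H2-K1 was at 0.767 and 0.812 against 3.54 and 3.82 CPM (-2.21 ± 0.217) and H2-D1 at 1.05 and 0.669 against 3.34 and 3.63 CPM (-1.99 ± 0.251), while B2m was not called (-0.22 ± 0.175). These class I genes have close relatives to which reads can be assigned. Of 22 G1 cyclin and CDK inhibitor genes 4 were called higher and 6 lower, which is not read as a difference from those shares either. Ccnd2 was at 2.74 and 2.82 against 0.476 and 0.143 CPM (3.03 ± 0.369), Ccnd3 at 77.8 and 79.7 against 41.7 and 43.5 CPM (0.89 ± 0.093), and Ccnd1 at 37.5 and 32.9 against 57.6 and 64.4 CPM (-0.79 ± 0.124). Few members moved among DNA replication genes (2 higher and 1 lower of 34), G2 and mitosis genes (1 and 2 of 25) and cytosolic ribosomal protein genes (1 and 3 of 81), all below the shares over all genes. Of 18 mitochondrially encoded transcripts 6 were called lower and 1 higher, with mt-Nd5 at 765 and 601 against 1313 and 1360 CPM (-0.97 ± 0.173).

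The remaining lists held few calls or calls in both directions. Of 59 replication-dependent histone genes 2 were called higher and 13 lower, with a median of -0.45 at 24 h and of 0.10 in the second comparison, where 10 were called higher and 6 lower. Of 24 cholesterol synthesis genes 5 were called higher and 3 lower, and of 27 ribosome biogenesis and MYC genes 4 were called higher and 1 lower. Among 22 germline genes 2 were called higher and 5 lower, among 26 p53 targets 1 and 4, among 18 polycomb genes 1 and 2, and among 20 immediate early genes 2 and 3. Heat shock genes (1 higher and 1 lower of 11), interferon response genes (2 and 2 of 14), neural genes (1 and 0 of 5), genes of the X inactivation centre (0 and 1 of 7), and the fibroblast (3 and 2 of 7) and blood and endothelial (1 and 1 of 7) lists complete the set.

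**Figure D5:**
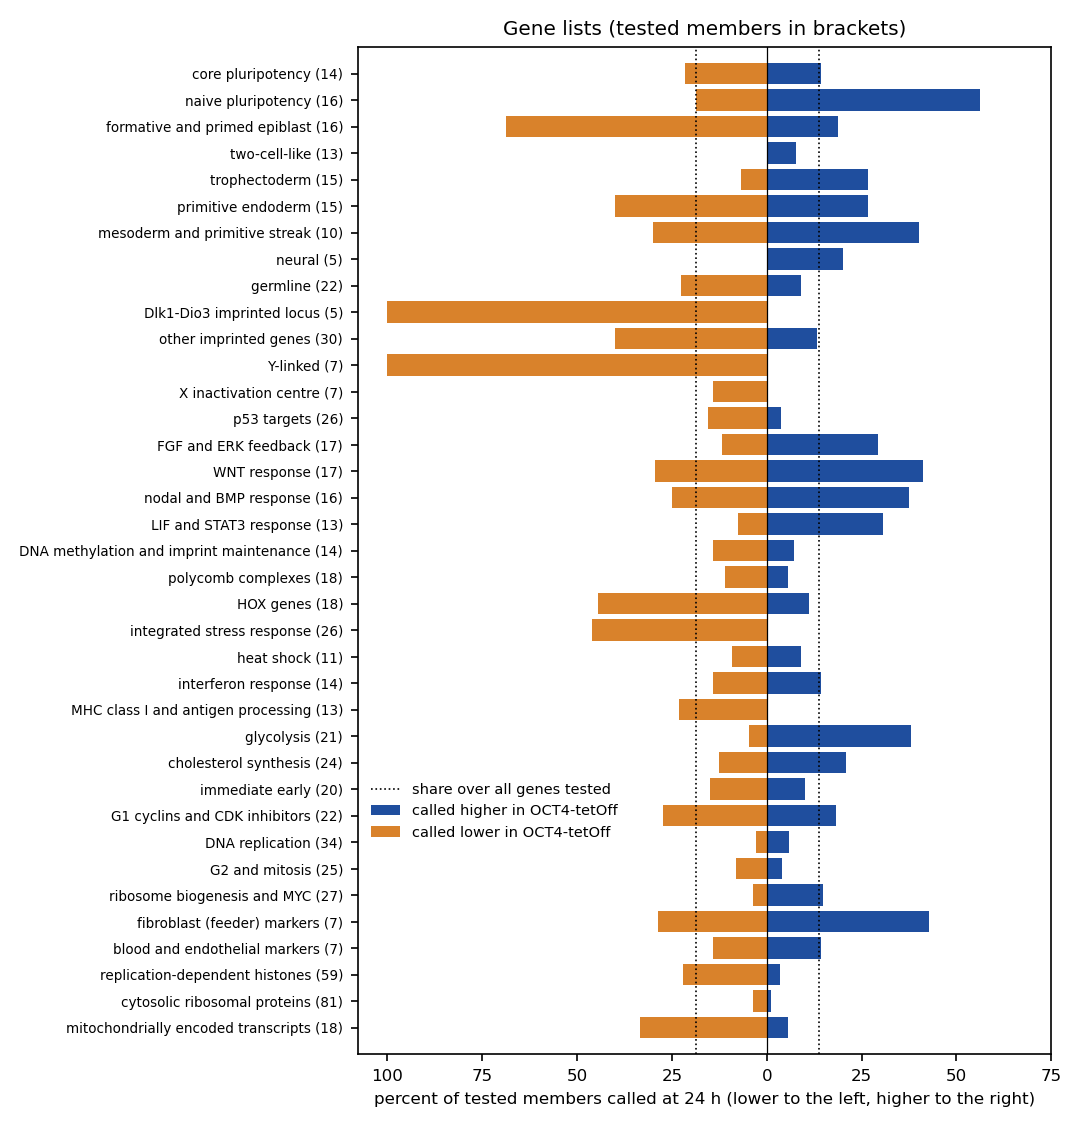
Percent of tested members called higher (blue, to the right) or lower (orange, to the left) in OCT4-tetOff at 24 h for each of 37 gene lists, with the number tested in brackets and dotted lines at the shares over all genes (13.9% higher and 18.6% lower). The Dlk1-Dio3 and Y-linked lists reach 100% lower, and the naive pluripotency, WNT and mesoderm lists extend furthest to the higher side among lists of at least 10 genes.

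Neighbouring genes often differed together. There were 38 runs of at least 4 consecutive tested genes all called over 2-fold in one direction, 32 lower and 6 higher in OCT4-tetOff, and 12 of them lie on chromosome 8 or in the stretches of 14 and 17. After the Hoxd cluster the longest were 8 genes of the Dlk1-Dio3 locus (chr12:109032187-109715791, median -3.85) and 8 genes on chromosome 8 that include Nat1, Nat2, Nat3 and Psd3 (chr8:66905997-68735146, median -1.92). A run of 6 genes on the X chromosome that holds Xlr3a, Xlr3b, Xlr4a, Xlr4b and Xlr5a and a run of 6 neighbouring Y genes were lower too, with medians of -2.11 and -2.83. Xlr genes are near-identical copies, so their counts are uncertain. The higher runs included Wnt6, Wnt10a and Ihh with 2 predicted genes (chr1:74771892-74951672, median 2.20), and Serpinb6b, Serpinb9, Serpinb9b and Serpinb1b (chr13:32965209-33094380, median 2.40). A gene read in one line only, with at most 3 counts in each library of one line and at least 100 in each of the other, was found once, Gm43049 on chromosome 3 (chr3:140692038-140760704). It had 0 and 0 counts in OCT4-tetOff and 208 and 136 in FOXD3-iKO, and 0 and 0 against 152 and 180 at 16 and 14 h. That is at least 43.7-fold lower at 24 h against a floor of 3 counts per library.

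Promoter CpG content is given as a description, with no test. The median observed to expected CpG ratio was 0.428 over 653 promoters of genes called over 2-fold higher, 0.488 over 1528 promoters of genes called over 2-fold lower and 0.722 over 11046 promoters of genes not called. A ratio over 0.6, as in CpG islands, was found in 34.3%, 41.2% and 63.4% of them. Genes can have several promoters, so these promoters are not independent.

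The genes that differ between lines were then read in the factor-loss experiments. The libraries contrasted there lie outside the 24 h line comparison, but each fit also held the vehicle libraries of 24 h of its line. After 16 h of doxycycline in OCT4-tetOff 2986 of 17713 genes were called (16.9%). Among genes higher in OCT4-tetOff 28.9% of 2569 were called, with 430 up and 312 down after OCT4 loss. Among genes lower in it 23.1% of 2960 were called, with 236 up and 448 down. The share was 12.8% of the 12021 genes not called between lines. The low-count filter of that fit used OCT4-tetOff libraries alone. It kept all 2569 higher genes but only 2960 of the 3421 lower ones. These shares are therefore partly set by which genes could be tested. Klf5 (-1.58), Tfcp2l1 (-1.88) and Gbx2 (-2.18), all higher in OCT4-tetOff, fell after OCT4 loss, as did Foxd3 (-1.93). Sp5 (1.30) and Axin2 (0.83), also higher in the line, rose. Among the 20 largest higher calls 4 fell and 10 rose after OCT4 loss, with Slc9b2 at -3.16 and Kcnc1 at 3.64 at the ends. The level filter for this set averaged all 8 libraries of 24 h, doxycycline ones included. Genes raised by doxycycline, such as Kcnc1 at 0.928 and 0.621 CPM in the water libraries of 24 h, could pass it for that reason. The split of 10 against 4 may therefore be partly set by the choice of genes.

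After 32 h of 4HT in FOXD3-iKO 1771 of 18707 genes were called (9.47%). Among genes higher in OCT4-tetOff 10.9% of 2450 were called, with 139 up and 128 down. Among genes lower in it 12.5% of 3418 were called, with 258 up and 168 down. The share was 8.7% of the 12164 genes not called between lines. The low-count filter of this fit used FOXD3-iKO libraries alone. It kept 2450 of the 2569 higher genes and 3418 of the 3421 lower ones. Among the 20 largest lower calls 1 was called after FOXD3 loss, which was Gabra5 (adjusted p = 0.035). Of genes described above, Axin2 (-0.45), Lefty1 (-1.32), Lefty2 (-1.23) and Lef1 (-0.79) fell, and Gata6 (1.1) rose. The difference between these shares was not tested.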

How the data were processed

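Newly made RNA was labelled with 4SU for 30 min, and libraries were made with KAPA RNA HyperPrep, per the labels' protocols. The values are raw counts per gene that the authors deposited. STAR, featureCounts and the mm10 genome are named in the submitters' processing notes, with no version in the labels used here. Gene lengths in the deposited files equal the whole gene interval, so introns were counted. Tables of both experiments were joined on gene identifier. Genes passed edgeR's filterByExpr with a minimum count of 10, were scaled by TMM and tested with edgeR's quasi-likelihood test (edgeR 4.0.16, R 4.3.3), with Benjamini-Hochberg adjustment over all tested genes. The 24 h comparison was fitted with the 8 libraries of 24 h and the second with 8 libraries of 14 and 16 h. Standard errors were taken as the absolute log2 fold change over the root of F. Depth was 21267401 to 30406124 counts at 24 h, and floors of 3 counts cover counting error only. The fitting steps were tested on simulated data. Alternatives were DESeq2, other scalings and filters, a replicate block and leaving out each library.

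Genes were named by a rule. It took the 20 largest called differences in each direction with an established symbol and no overlap between groups. Their mean log2 CPM over the 8 libraries of 24 h, treated ones included, had to be at least 1. In each list it took the 4 members of smallest p and the first 4 listed. Genes of other names are said to be chosen after their values were seen, or belong to the runs. The lists, alternatives and comparisons were chosen with earlier results of these data known. The rule for chromosome stretches was chosen after the data were seen. Some named genes are not reported here.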

Additional observations from a re-analysis of the deposited data

Results flagged for a closer look

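The line difference at 24 h differed from that at 14 and 16 h for 157 genes by the test of the difference over 24 libraries (edgeR quasi-likelihood test, adjusted p under 0.05). The first comparison sets the lines at 24 h and the second at 16 h against 14 h, in FOXD3-iKO libraries of different series numbers, so time and library series cannot be told apart. Among the named list members 9 were called in this test, and the difference between the comparisons (24 h minus 14 and 16 h) is given for each on the log2 scale. Utf1 differed by -1.56 (adjusted p = 0.012), with FOXD3-iKO at 13.5 and 14.4 CPM at 24 h and 6.85 and 7.73 CPM at 14 h. The nodal inhibitors Lefty1 (-2.75, adjusted p = 0.013) and Lefty2 (-1.57, adjusted p = 0.0021) differed in the same direction, and both had higher levels in FOXD3-iKO at 24 h than at 14 h. Socs3 (2.05, adjusted p = 0.015) and Bcl3 (1.19, adjusted p = 0.012), targets of LIF signalling, differed the opposite way. Myc differed by -2.79 (adjusted p = 0.0074), at 2.96 and 4.06 CPM in FOXD3-iKO at 24 h and 0.700 and 0.905 CPM at 14 h. Lama1 (1.09, adjusted p = 0.0048), Ephx1 (0.77, adjusted p = 0.0058) and the hexokinase gene Hk1 (0.50, adjusted p = 0.036) complete the 9.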

How the results depend on the processing

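The line difference at 24 h gave 3303 to 4736 calls when 1 library was left out, against 5990, and the second comparison 5501 to 6089, against 8414. The test of the difference between them gave 272 calls with DESeq2, 959 with total-count scaling, 417 with no low-count filter and 41 to 115 without 1 library, against 157. Total-count scaling also moved the share of higher calls in the second comparison from 47.5% to 18.2%, and in the test of the difference to 97.3%, with medians of all genes of -0.25 and 0.35. At 24 h it moved that share from 42.9% to 52.1%, and removing the length trend moved it to 50.6%. The median of chromosome 8 was -0.42 with total counts, -0.47 with no filter and -0.54 to -0.48 without 1 library. The chromosome 14 stretch had medians of -0.89 with total counts, -0.93 with no filter and -1.0 to -0.96 without 1 library. The chromosome 17 stretch had medians of -0.88 with total counts, -0.88 with no filter, -0.95 without Gm26917 and Gm42418 in the scaling, -0.96 with only the 4 compared libraries, -0.92 with the length trend removed, -0.95 with all 24 libraries and -0.96 to -0.93 without 1 library; the cause of these shifts was not tested. With the replicate block, the 24 h comparison gave 5702 calls, the second 8612, the test of the difference 157 and chromosome 8 a median of -0.50. Among genes named in the text, the block ended the call of Klf4 (adjusted p = 0.070) and made one of Xist (adjusted p = 0.049). Deviations of same-numbered libraries correlated at -0.062 between the groups compared, at 0.379 between the water and doxycycline libraries of OCT4-tetOff and at 0.1 between the ethanol and 4HT libraries of FOXD3-iKO, so the numbers were not taken to pair the lines. Over 247 named genes and their alternatives, 2976 of 3206 values kept direction and side of the threshold, 161 lost the call, 69 gained it and 0 reversed, and 45 of 176 called genes lost the call at least once. Depth limits genes at a few counts, such as Kdm5d and Sox17.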
